A study of Mus musculus with 18 samples.

Results

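DNA methylation writers and erasers were followed here as 8 genes, taken from the read-count table by their gene names: *Dnmt1*, *Uhrf1*, *Dnmt3a*, *Dnmt3b*, *Tet1*, *Tet2*, *Tet3* and *Tdg*. Each name was found once among 35275 genes, and all 8 passed the filter on low counts. RNA-seq was run on primary cell lines from mouse malignant peripheral nerve sheath tumors (MPNSTs), sarcomas that arise in peripheral nerve. Tumors were raised in wild-type 129 Sv/Jae mice with an adenovirus, injected into the sciatic nerve, that carried CMV-driven Cas9 and guide RNAs. Guides against *Nf1* and p53 gave the *Nf1*/*p53* dKO (genotype Nf1-/-;p53-/-), and guides against *Nf1* and *Cdkn2a* gave the *Nf1*/*Cdkn2a* dKO (Nf1-/-;Cdkn2a-/-), so *Nf1* was deleted in both. There were 3 lines per genotype and 3 untreated cultures per line in DMEM with serum, which gave 18 libraries. Each line came from 1 tumor and stands for that tumor, and per the study its cells were passaged many times before analysis. The promoter that drove Cas9 is not specific to a cell type, and no line with intact p53 and *Cdkn2a* was included. The age of the animals is not given in the sources used here.

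DNA methylation is set by writers that add a methyl group to cytosine, mostly at CpG dinucleotides, and is lost when it is not copied at replication or when erasers oxidize it. DNMT1, recruited to newly copied DNA by UHRF1, restores the pattern of the parent strand, while DNMT3A and DNMT3B methylate sites that carried no mark. TET enzymes oxidize methylcytosine in a reaction that consumes 2-oxoglutarate, and TDG excises some of the oxidized bases. *Dnmt1* and *Uhrf1* are known as genes of dividing cells and E2F targets, and TET2 and DNMT3A are best known from blood cancers.

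RefSeq promoter windows of GRCm38.p6, from 250 bases before to 50 after a transcript start, were matched for all 8 genes (13 windows). They were searched on both strands for 4 words of the E2F type, TTTCCCGC, TTTCGCGC, TTTGCCGC and TTTGGCGC, where a hit of TTTCGCGC or TTTGGCGC on one strand can overlap a hit on the other. One of these words was present in 2.26% of all 32851 windows of this length, and among the 8 genes it was present in 1 window of *Dnmt1* and 1 of *Uhrf1*. No word was found in the windows of the other genes, which says only that these letters are not there. In *Dnmt1* one word began 219 bases before the start and a second 33 bases after it. Of that window, 216 bases are annotated as exon, since its start lies 356 bases downstream of another one, so only 30 bases around each word are shown, with the word in capitals. For *Uhrf1* the 250 bases before the start are shown, again with the word in capitals, 185 bases upstream. The 250 bases before the start of *Tet2*, the gene with the smallest p between genotypes below, are shown for their CpG content, and there the capitals mark each CpG.
*Dnmt1* (chr9:20952824-20952853, minus strand): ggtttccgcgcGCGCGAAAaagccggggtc
*Dnmt1* (chr9:20952574-20952603, minus strand): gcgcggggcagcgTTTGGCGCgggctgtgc
*Uhrf1* (chr17:56304063-56304312, plus strand): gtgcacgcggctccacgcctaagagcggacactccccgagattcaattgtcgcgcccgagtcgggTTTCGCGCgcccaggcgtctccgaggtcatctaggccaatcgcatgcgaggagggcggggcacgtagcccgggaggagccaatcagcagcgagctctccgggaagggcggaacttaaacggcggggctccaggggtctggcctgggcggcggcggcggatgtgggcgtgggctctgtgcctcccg
*Tet2* (chr3:133544391-133544640, minus strand): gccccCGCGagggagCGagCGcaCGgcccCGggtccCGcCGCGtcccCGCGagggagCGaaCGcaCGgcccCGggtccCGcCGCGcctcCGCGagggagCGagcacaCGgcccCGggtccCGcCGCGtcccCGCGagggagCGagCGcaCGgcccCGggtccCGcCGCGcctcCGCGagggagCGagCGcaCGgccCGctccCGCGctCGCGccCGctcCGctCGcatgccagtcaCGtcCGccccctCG

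The *Tet2* stretch holds 51 CpGs in 250 bases and the *Uhrf1* stretch 30. Over the whole 300-base window *Tet2* had 57 CpGs, more than 99.8% of all windows, against a median of 7. Every gene of the group had at least 1 window above that median. The richest window held 33 in *Dnmt1* and *Uhrf1*, 47 in *Dnmt3a*, 30 in *Dnmt3b*, 17 in *Tet1*, 22 in *Tet3* and 26 in *Tdg*. Other windows held 12 and 2 in *Dnmt1*, 12 in *Uhrf1*, and 46 and 18 in *Dnmt3a*. The share of all genes with a window above the median was not computed. DNA methylation itself was not measured in these libraries.

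Libraries held 19560535 to 28312207 counts (median 23149777). Cultures of a line were summed for the comparison of genotypes, since they share a tumor, and the sums held 65206479 to 73065228 counts per line. Levels are given as CPM, counts scaled to a common library size with TMM factors. *Trp53* was at 94.1, 67.5 and 58.7 CPM in *Nf1*/*p53* dKO lines and at 247, 246 and 185 CPM in *Nf1*/*Cdkn2a* dKO lines, while *Nf1* (12.7 to 70.0 CPM) and *Cdkn2a* (42.9 to 392 CPM) overlapped between the genotypes. Reads were thus present from the targeted genes in every line, and counts per gene do not show whether a gene was cut. The labels call the cells mesenchymal, and the 7 mesenchymal markers summed to 8140 to 22258 CPM per line. Leukocyte markers summed to 3.83 to 8.15 CPM, endothelial markers to 1.19 to 2.5 CPM, epithelial markers to 0.297 to 1.44 CPM, and Schwann markers to 1.35 to 68.5 CPM. The highest Schwann sum was in the second *Nf1*/*p53* dKO line, where *Ngfr* was at 64.3 CPM, while *Sox10*, another marker of that list, did not exceed 0.099 CPM in any line. Muscle markers summed to 51.6, 25.8 and 319 CPM in *Nf1*/*p53* dKO lines and to at most 0.529 CPM in *Nf1*/*Cdkn2a* dKO lines.

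The 8 genes lie on 8 stretches of the GRCm38 genome in GENCODE M21. *Dnmt1* lies on chr9:20907209-20959888 (minus strand), *Uhrf1* on chr17:56303321-56323486 (plus), *Dnmt3a* on chr12:3806007-3914443 (plus) and *Dnmt3b* on chr2:153649450-153687730 (plus). *Tet1* lies on chr10:62804570-62908996 (minus), *Tet2* on chr3:133463679-133545139 (minus), *Tet3* on chr6:83362373-83459084 (minus) and *Tdg* on chr10:82629828-82650799 (plus). Counts are per gene over all its exons, so isoforms are not separated, and strand use in counting is not given in the sources used here. That leaves *Tdg* uncertain, since 367 bases of its exons overlap *Glt8d2* on the opposite strand, a gene at 3.49 to 8.70 CPM in the lines. The overlaps of *Dnmt3a* with its antisense gene *Dnmt3aos* (133 bases, 6 reads in all libraries) and of *Tet2* with *Gm42567* (43 bases) are small. *Gm14490*, a near copy beside *Dnmt3b*, had 1 read in all.

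Per kilobase of exon, the maintenance genes were far above the rest. The median over the 6 lines was 42.2 CPM per kb for *Uhrf1* and 35.3 CPM per kb for *Dnmt1*. *Tdg* followed at 3.75 CPM per kb, *Tet3* at 2.12 and *Dnmt3a* at 1.08. *Tet2* had 0.69 CPM per kb, *Dnmt3b* 0.369 and *Tet1* 0.0442. The order of the 8 medians was the same when the longest transcript was used as the length.

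**Figure D1:**
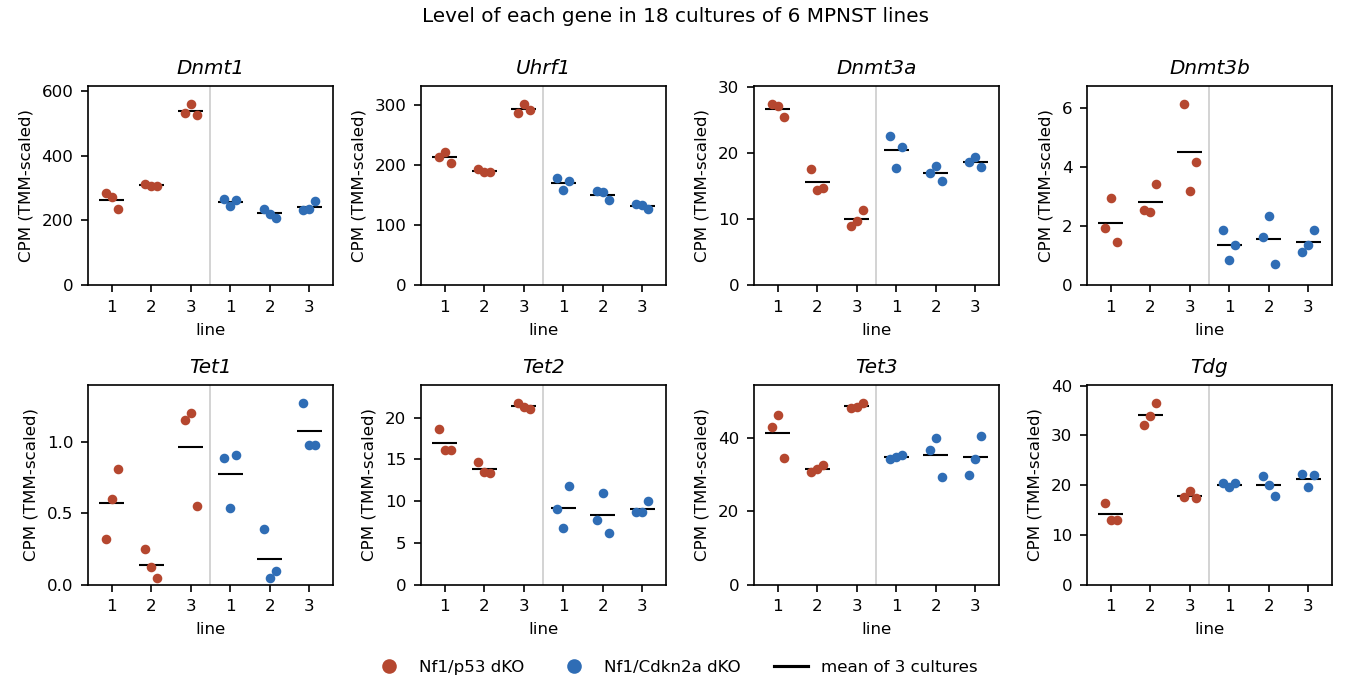
Level of each of the 8 genes in CPM (TMM-scaled, linear axes from 0) in the 3 cultures (points) of each line, with the mean of the cultures as a bar; *Nf1*/*p53* dKO lines are on the left of each panel and *Nf1*/*Cdkn2a* dKO lines on the right. The third *Nf1*/*p53* dKO line is highest for *Dnmt1* (525 to 559 CPM) and lowest for *Dnmt3a* (9.06 to 11.4 CPM). The 9 *Tet2* values of each genotype, which come from 3 lines, do not overlap.

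The comparison of genotypes asks whether transcripts of this machinery differ between MPNST lines that lost *Cdkn2a* and lines that lost p53. *Tet2*, *Dnmt3b*, *Uhrf1* and *Dnmt1* had lower levels in *Nf1*/*Cdkn2a* dKO cells, with no overlap between the lines of the 2 genotypes, while *Dnmt3a*, *Tet1*, *Tet3* and *Tdg* overlapped. By edgeR's quasi-likelihood test on the 6 lines, with Benjamini-Hochberg adjustment over 15207 genes, 0 of the 8 genes passed an adjusted p of 0.05, and 3 (*Tet2*, *Uhrf1* and *Dnmt3b*) had an unadjusted p under 0.05. Of all genes tested, 1.8% were called and 22.4% had an unadjusted p under 0.05. DESeq2 on the same 6 lines called 2 of the 8, *Tet2* (adjusted p = 0.00492) and *Dnmt3b* (adjusted p = 0.0439), and limma-voom on the 18 cultures, with line as a random effect, called 1, *Uhrf1* (adjusted p = 0.00607). These tools called 11.6% and 16.6% of all genes they tested. Lines did not overlap for 4 of the 8 genes, all of them lower in the *Nf1*/*Cdkn2a* dKO, where 31.4% of all genes did not overlap in either direction and 16.6% did not overlap and were lower. The median log2 fold change (*Nf1*/*Cdkn2a* dKO over *Nf1*/*p53* dKO) was −0.41 over the 8 genes and −0.02 over all genes tested. In bulk samples, fewer cells with a transcript and less of it per cell cannot be told apart.

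**Figure D2:**
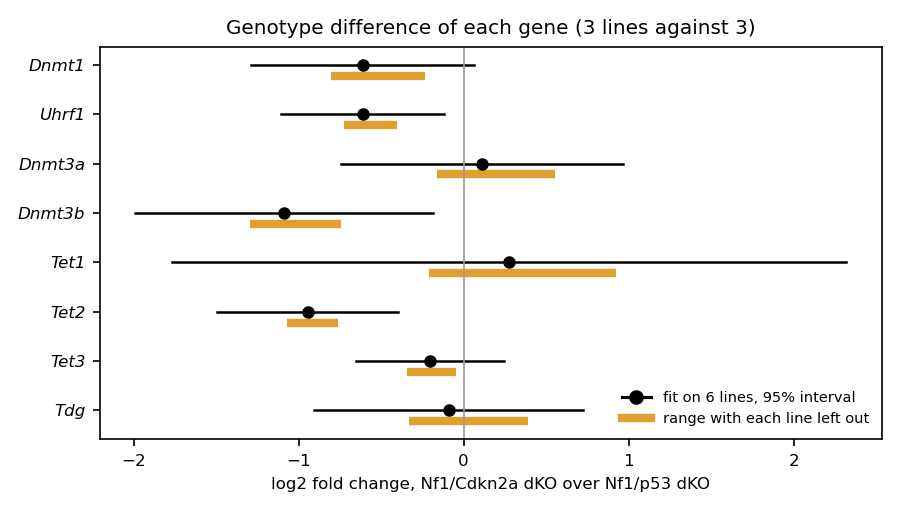
Log2 fold change of each gene between genotypes, with negative values lower in the *Nf1*/*Cdkn2a* dKO: points are the edgeR fit on 6 lines, black bars its 95% interval, and orange bars the range of the fits with 1 line left out. The intervals of *Uhrf1*, *Dnmt3b* and *Tet2* lie below 0, that of *Dnmt1* reaches 0.06, and the orange bars of *Dnmt3a*, *Tet1* and *Tdg* cross 0.

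*Dnmt1*, the maintenance methyltransferase, ran from 235 to 559 CPM (median 307) over 9 *Nf1*/*p53* dKO cultures and from 209 to 267 CPM (median 236) over 9 *Nf1*/*Cdkn2a* dKO cultures. By line it was at 262, 308 and 539 CPM in *Nf1*/*p53* dKO cells and at 259, 223 and 244 CPM in the *Nf1*/*Cdkn2a* dKO. The third *Nf1*/*p53* dKO line stood above all others, the first was level with the *Nf1*/*Cdkn2a* dKO lines, and the ranges of single cultures overlapped between the genotypes. The log2 fold change was −0.61 (SE 0.28, adjusted p = 0.262), and without the third *Nf1*/*p53* dKO line it was −0.23 (adjusted p = 0.407). With DESeq2's size factors in place of TMM the lines of the 2 genotypes overlapped.

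*Uhrf1* encodes the reader of hemimethylated DNA that brings DNMT1 to the replication fork. Its 9 *Nf1*/*p53* dKO cultures ran from 188 to 301 CPM (median 214) and its 9 *Nf1*/*Cdkn2a* dKO cultures from 127 to 178 CPM (median 155). No culture of one genotype reached the range of the other, though cultures of a line are not independent. The share of all genes for which this holds was not computed. By line the values were 212, 189 and 293 CPM against 170, 152 and 132 CPM, and all 6 lines stood apart from their neighbors in the order of levels. The mean ± SD over lines was 231 ± 54.3 CPM against 151 ± 19.1 CPM (n = 3 and 3), a log2 fold change of −0.61 (SE 0.21, 95% interval −1.10 to −0.12), with an adjusted p of 0.152 from edgeR. Without the third *Nf1*/*p53* dKO line it was −0.40.

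Of the de novo writers, *Dnmt3a* showed no common direction. Its cultures ran from 9.06 to 27.4 CPM (median 14.8) in *Nf1*/*p53* dKO cells and from 15.8 to 22.7 CPM (median 18.1) in the *Nf1*/*Cdkn2a* dKO. By line it was at 26.5, 15.6 and 10.0 CPM against 20.6, 17.1 and 18.7 CPM, so the *Nf1*/*p53* dKO held both the highest and the lowest lines and enclosed the other genotype. The log2 fold change was 0.11 (SE 0.36, 95% interval −0.74 to 0.96, adjusted p = 0.878) and turned to −0.16 without the third *Nf1*/*p53* dKO line. In that line *Dnmt1* was highest and *Dnmt3a* lowest.

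*Dnmt3b* was the scarcer of the de novo genes, with 15 to 144 reads per culture. It ran from 1.45 to 6.12 CPM (median 2.96) in *Nf1*/*p53* dKO cultures and from 0.733 to 2.33 CPM (median 1.38) in *Nf1*/*Cdkn2a* dKO cultures. Line values were 2.17, 2.8 and 4.47 CPM against 1.38, 1.6 and 1.45 CPM, apart by genotype although single cultures overlapped. The log2 fold change was −1.09 (SE 0.38, 95% interval −1.99 to −0.19, adjusted p = 0.162). As a share of *Dnmt1*, *Dnmt3a* and *Dnmt3b* counts per kb, *Dnmt3b* made up 1.13, 1.27 and 1.17% in *Nf1*/*p53* dKO lines and 0.738, 0.991 and 0.826% in *Nf1*/*Cdkn2a* dKO lines. That share was apart by genotype (exact two-sided permutation p = 0.1, adjusted p = 0.2), and the shares of *Dnmt1* and *Dnmt3a* overlapped. *Dnmt1* took 94.6 to 98.0% of that sum in all 6 lines.

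Among the erasers, and among all 8 genes, *Tet2* had the smallest p between genotypes. TET2 lacks the CXXC domain that its relatives carry, and it is often lost in myeloid cancers. *Tet2* ran from 13.4 to 21.7 CPM (median 16.2) in *Nf1*/*p53* dKO cultures and from 6.21 to 11.8 CPM (median 8.69) in *Nf1*/*Cdkn2a* dKO cultures. The 18 cultures did not overlap by genotype, but they came from 3 lines per genotype. The share of all genes without overlap among cultures was not computed. By line it was at 16.8, 13.8 and 21.4 CPM against 9.43, 8.39 and 9.16 CPM, with the *Nf1*/*Cdkn2a* dKO lines close together. The mean was 17.3 ± 3.78 CPM against 9.0 ± 0.539 CPM (SD, n = 3 and 3 lines), a log2 fold change of −0.94 (SE 0.23, 95% interval −1.49 to −0.40). The unadjusted p was 0.0051 by edgeR and the adjusted p 0.0855, so *Tet2* did not pass the threshold in that fit. With any 1 line left out the log2 fold change stayed between −1.07 and −0.76, with adjusted p-values of 0.107 to 0.222.

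*Tet3* was the most abundant eraser of the TET family in every line. It ran from 30.7 to 49.4 CPM (median 43.0) in *Nf1*/*p53* dKO cultures and from 29.4 to 40.6 CPM (median 34.9) in *Nf1*/*Cdkn2a* dKO cultures. By line it was at 41.3, 31.6 and 48.7 CPM against 34.9, 35.7 and 35.0 CPM, with the *Nf1*/*Cdkn2a* dKO lines inside the range of the others. The log2 fold change was −0.20 (SE 0.19, 95% interval −0.65 to 0.24, adjusted p = 0.557), and it was −0.05 without the third *Nf1*/*p53* dKO line and −0.34 without the second.

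*Tet1*, known best from embryonic stem cells and the germ line, was near the limit of detection at 1 to 30 reads per culture. It ran from 0.0444 to 1.2 CPM (median 0.548) in *Nf1*/*p53* dKO cultures and from 0.0431 to 1.27 CPM (median 0.882) in *Nf1*/*Cdkn2a* dKO cultures. The second line of each genotype was lowest, at 0.141 CPM in *Nf1*/*p53* dKO cells and 0.188 CPM in the *Nf1*/*Cdkn2a* dKO, and the other lines had 0.58 and 0.969 CPM against 0.786 and 1.08 CPM. The log2 fold change of 0.28 had an SE of 0.85 (adjusted p = 0.872) and turned to −0.16 without the second *Nf1*/*p53* dKO line and to −0.21 without the third *Nf1*/*Cdkn2a* dKO line.

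The composition of the TET family does not depend on the scaling between libraries, and it differed between genotypes by more than the lines did among themselves. *Tet2* made up 28.3, 30.2 and 29.8% of the summed *Tet1*, *Tet2* and *Tet3* counts per kb in *Nf1*/*p53* dKO lines and 20.7, 18.8 and 20.1% in *Nf1*/*Cdkn2a* dKO lines. *Tet3* made up 70.6, 69.5 and 68.7% against 77.4, 80.8 and 77.4%. The *Tet2* share was thus lower in each *Nf1*/*Cdkn2a* dKO line and the *Tet3* share higher. With so little *Tet1*, a lower *Tet2* share forces a higher *Tet3* share, so they are not separate results. In CPM the *Tet3* lines overlapped between the genotypes, with a log2 fold change of −0.20. The mean difference was −9.59 percentage points for *Tet2* and 8.91 points for *Tet3*, with an exact two-sided permutation p of 0.1 for each, the smallest that 3 lines against 3 allow, and an adjusted p of 0.2 over the 6 shares of the DNMT and TET families. Among single cultures the *Tet2* share was 25.4 to 32% in *Nf1*/*p53* dKO cells and 15.9 to 24.4% in the *Nf1*/*Cdkn2a* dKO. These did not overlap either, but they come from the same 3 lines per genotype. *Tet1* made up 0.336 to 1.48% against 0.458 to 2.58%, and overlapped.

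**Figure D3:**
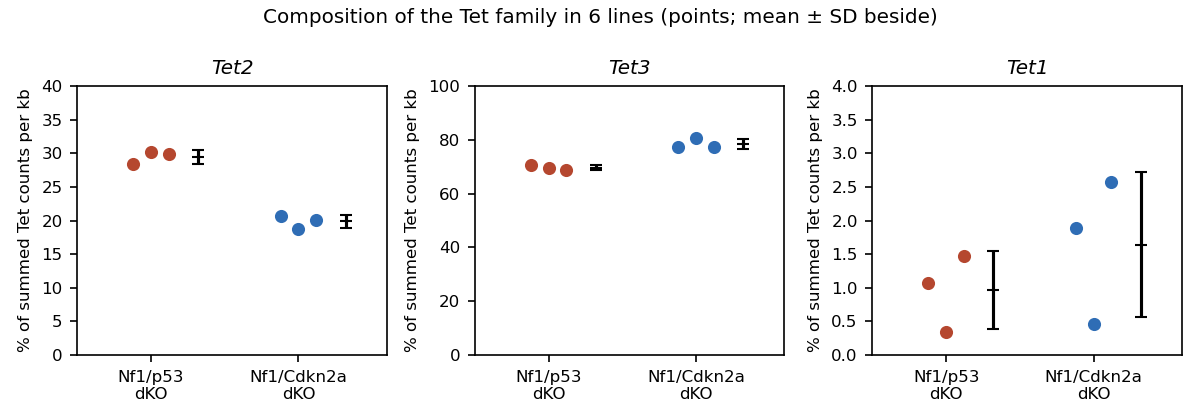
Share of each TET gene in the summed counts per kb of exon of *Tet1*, *Tet2* and *Tet3* (percent, linear axes from 0 with a different range in each panel), with 1 point per line and the mean ± SD of 3 lines beside them. *Tet2* is at 28.3 to 30.2% in *Nf1*/*p53* dKO cells and 18.8 to 20.7% in the *Nf1*/*Cdkn2a* dKO. The *Tet3* share moves the other way, as it must in a sum with little *Tet1*.

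*Tdg* encodes the glycosylase that removes some of the oxidized bases made by TET enzymes, after which base excision repair restores cytosine. It ran from 12.9 to 36.4 CPM (median 17.5) in *Nf1*/*p53* dKO cultures and from 17.9 to 22.3 CPM (median 20.4) in *Nf1*/*Cdkn2a* dKO cultures. By line it was at 13.9, 34.0 and 17.9 CPM against 20.2, 20.1 and 21.5 CPM. The second *Nf1*/*p53* dKO line was above and the other lines of that genotype below all *Nf1*/*Cdkn2a* dKO lines. The log2 fold change was −0.09 (SE 0.34, adjusted p = 0.896) and turned to 0.39 without the second *Nf1*/*p53* dKO line. *Glt8d2*, the overlapping neighbor of *Tdg*, was at 6.56, 6.85 and 4.61 CPM in *Nf1*/*p53* dKO lines. In *Nf1*/*Cdkn2a* dKO lines it was at 7.43, 3.49 and 8.70 CPM. The part of *Glt8d2* reads in the *Tdg* counts was not tested.

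Genes of DNA replication, like *Dnmt1* and *Uhrf1*, had lower values in *Nf1*/*Cdkn2a* dKO cells. The list of 24 such genes, which includes the MCM helicase subunits and *Pcna*, the sliding clamp, summed to 2906, 2853 and 3725 CPM in *Nf1*/*p53* dKO lines and to 2759, 2374 and 2265 CPM in *Nf1*/*Cdkn2a* dKO lines. The third *Nf1*/*p53* dKO line was highest, as it was for *Dnmt1*, *Uhrf1*, *Dnmt3b*, *Tet2* and *Tet3*, and it also had the highest sum of muscle markers, with *Myod1* at 204 CPM. Of the 24 genes, 23 had a negative log2 fold change, with a median of −0.42. The lines of 14 did not overlap and were lower, where that held for 16.6% of all genes tested. In the edgeR test 0 passed, where 1.8% of all genes did, and 7 had an unadjusted p under 0.05, where 22.4% did. DESeq2 on the lines called 1 and limma-voom 10, all lower, where these tools called 11.6% and 16.6% of all genes. *Rpa2*, of the single-strand binding complex, had the lowest value of the list (−0.78, adjusted p = 0.230) and *Rrm2*, of ribonucleotide reductase, the highest (0.17, adjusted p = 0.572). Without the third *Nf1*/*p53* dKO line they were at −0.32 and 0.09. The part of the muscle genes in these levels was not tested.

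Relative to the replication list, the *Dnmt1* values of the 2 genotypes overlapped. It stood at 90.3, 108 and 145 CPM per 1000 CPM of the list in *Nf1*/*p53* dKO lines and at 93.9, 94.2 and 108 in *Nf1*/*Cdkn2a* dKO lines. *Uhrf1* stood at 72.9, 66.4 and 78.6 against 61.7, 63.9 and 58.3, still lower in each *Nf1*/*Cdkn2a* dKO line. *Tet2* stood at 5.77, 4.85 and 5.73 against 3.42, 3.54 and 4.05, and *Dnmt3b* at 0.745, 0.982 and 1.2 against 0.500, 0.675 and 0.642. The lines of *Uhrf1*, *Tet2* and *Dnmt3b* thus stayed apart on that scale, where the log2 ratio of the means was −0.21 for *Dnmt1*, close to the −0.24 for *Uhrf1*, and −0.57 for *Tet2* and −0.69 for *Dnmt3b*. For *Tet3* and *Tdg*, whose log2 fold changes were negative before, the ratio was 0.17 and 0.23. No test was run on this scale, and the share of all genes whose lines stay apart on it was not computed.

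**Figure D4:**
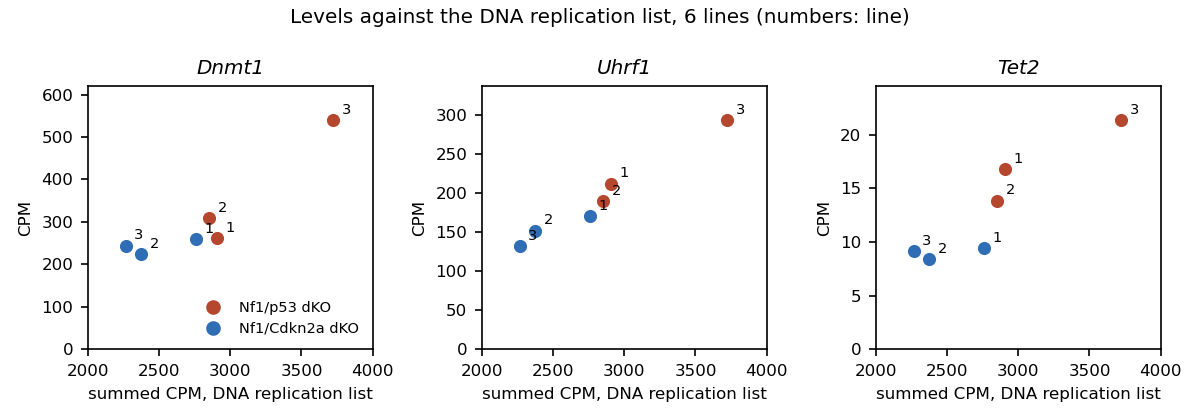
CPM of *Dnmt1*, *Uhrf1* and *Tet2* in each of the 6 lines against the summed CPM of 24 DNA replication genes (the horizontal axis does not start at 0, the vertical axes do, and numbers name the line). *Nf1*/*Cdkn2a* dKO lines sit at 2265 to 2759 and *Nf1*/*p53* dKO lines at 2853 to 3725 on the horizontal axis, and the *Tet2* points of the *Nf1*/*Cdkn2a* dKO lie at 8.39 to 9.43 CPM.

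The lines of one genotype differed among themselves, with wider ranges in the *Nf1*/*p53* dKO. That difference in spread was not tested. By edgeR's F test over the 18 cultures, all 8 genes passed an adjusted p of 0.05 between *Nf1*/*p53* dKO lines, with adjusted p-values from 2.64e-13 for *Dnmt1* to 0.0188 for *Dnmt3b*. Of all 14690 genes tested, 73.2% did. Between *Nf1*/*Cdkn2a* dKO lines 3 of the 8 passed, *Uhrf1* (adjusted p = 3.43e-05), *Tet1* (0.00505) and *Dnmt1* (0.0208), where 56.8% of all genes did. These tests measure the spread between cultures of a line, which may be technical, and not between tumors of a genotype. Without culture 1 of every line *Dnmt3b* no longer passed in the *Nf1*/*p53* dKO (adjusted p = 0.299), nor did it without culture 3 (0.0544). *Tet1* no longer passed there without culture 2 (0.0593). Without culture 2 *Dnmt1* (0.0908) and *Tet1* (0.0899) no longer passed in *Nf1*/*Cdkn2a* dKO cells and *Tet2* did (0.0326), and without culture 3 *Dnmt1* was lost again (0.105).

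The highest line was 2.04 times the lowest for *Dnmt1*, 2.66 times for *Dnmt3a* and 2.42 times for *Tdg* in the *Nf1*/*p53* dKO. In the *Nf1*/*Cdkn2a* dKO the same ratios were 1.16, 1.2 and 1.07. *Tet3* differed 1.54-fold between *Nf1*/*p53* dKO lines and 1.02-fold between *Nf1*/*Cdkn2a* dKO lines. The ratio was larger in the *Nf1*/*p53* dKO for 8 of 8 genes, and for 62.1% of 14696 genes with reads in all 6 lines, where its median was 1.6 against 1.39. *Tet1* had the widest ratio in both genotypes, 6.90 and 6.09, at its low counts.

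**Figure D5:**
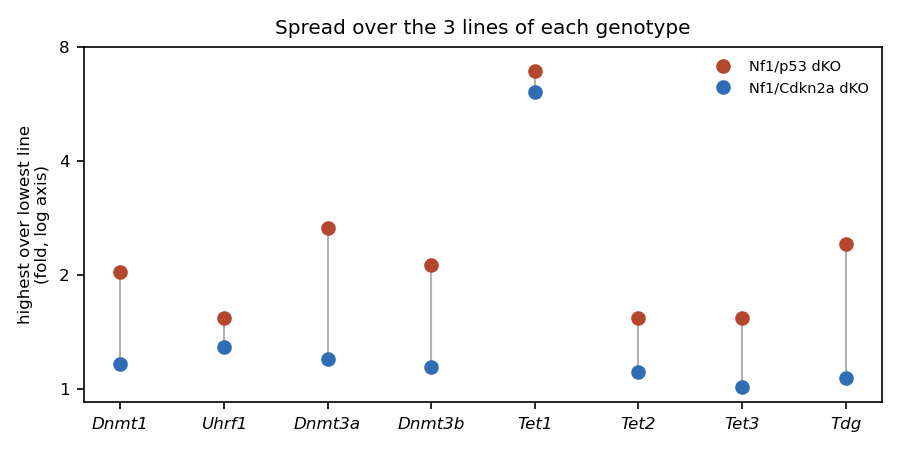
Ratio of the highest to the lowest line of each genotype for the 8 genes (log axis), with 1 point per genotype. Each *Nf1*/*p53* dKO point lies above the *Nf1*/*Cdkn2a* dKO point of the same gene, by the most for *Tdg* (2.42 against 1.07) and *Dnmt3a* (2.66 against 1.2).

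Partners of the maintenance pathway showed a mixed picture. Of 8 listed genes 7 were tested and 0 passed (3 at an unadjusted p under 0.05). Of all genes tested, 1.8% passed and 22.4% had an unadjusted p under 0.05. The list had 5 negative and 2 positive log2 fold changes and a median of −0.32. DESeq2 on the lines called 1 (*Cdca7l*) and limma-voom 2 (*Cdca7l* and *Cdca7*), all lower, where these tools called 11.6% and 16.6% of all genes. *Cdca7*, which works with the remodeler HELLS, had the lowest log2 fold change, −0.85 (SE 0.28, adjusted p = 0.151), at 51.2, 45.4 and 80.1 CPM against 34.1, 39.6 and 24.3 CPM. *Usp7*, a deubiquitinase that stabilizes DNMT1 and UHRF1, had the highest, 0.33 (SE 0.17, adjusted p = 0.308). Without the third *Nf1*/*p53* dKO line they were at −0.56 and 0.22.

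In the list for de novo methylation and its targeting 1 of 10 genes passed, where 1.8% of all genes tested did. *Setdb1*, the histone H3 lysine 9 methyltransferase that silences retroelements with TRIM28, was at 109, 103 and 130 CPM in *Nf1*/*p53* dKO lines and at 54.4, 53.2 and 53.1 CPM in *Nf1*/*Cdkn2a* dKO lines. The groups were far apart, and the *Nf1*/*Cdkn2a* dKO lines were nearly equal. *Setdb1* fell by 1.09 on the log2 scale (SE 0.14, adjusted p = 0.0287), and it missed the threshold in 4 of 6 fits with 1 line left out (adjusted p = 0.066 without the second *Nf1*/*p53* dKO line and 0.0973 to 0.124 without an *Nf1*/*Cdkn2a* dKO line). The fits that missed called 0 to 27 of all genes, and with any 1 line left out the log2 fold change stayed between −1.15 and −0.98. DESeq2 on the lines and limma-voom each called *Setdb1* alone in this list, where they called 11.6% and 16.6% of all genes. *Trim28* itself was at 335 to 461 CPM in *Nf1*/*p53* dKO cells and 373 to 456 CPM in the *Nf1*/*Cdkn2a* dKO. *Zfp57*, a guide of methylation to imprinted regions, had the highest value of that list, 0.87 (SE 1.13), with 1.44 to 14.1 CPM against 1.77 to 35.7 CPM, and the median was 0.04. *Dnmt3l*, the cofactor of de novo methylation in germ cells, was at 0.125 to 0.786 CPM in all lines.

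Of 7 readers of methylated CpG 0 passed in edgeR, DESeq2 or limma-voom, and 0 had an unadjusted p under 0.05, with log2 fold changes from −0.38 for *Zbtb38* to 0.31 for *Zbtb4* and a median of −0.09. *Zbtb38* was at −0.07 without the second *Nf1*/*p53* dKO line and *Zbtb4* at 0.06 without the third *Nf1*/*Cdkn2a* dKO line. Of 13 base excision genes 11 had a negative log2 fold change (median −0.42), where 7875 of all 15207 genes tested did. In edgeR 3 had an unadjusted p under 0.05, where 22.4% of all genes did, and 1 passed, where 1.8% did. DESeq2 on the lines called *Neil2* and *Gadd45a*, and limma-voom *Gadd45a* and *Parp1*, all lower. These tools called 11.6% and 16.6% of all genes. *Gadd45a*, a stress-induced gene linked to demethylation, was at 4.98, 7.75 and 8.59 CPM against 1.72, 2.97 and 2.92 CPM, without overlap (log2 fold change −1.48, SE 0.36, adjusted p = 0.0867 in edgeR). The gene called by edgeR was *Neil2*, a glycosylase for oxidized bases, with 49, 17 and 39 reads in *Nf1*/*p53* dKO lines and 3, 2 and 2 in *Nf1*/*Cdkn2a* dKO lines. Summed reads per total were 14.6 times as many in the *Nf1*/*p53* dKO (exact 95% interval 6.84 to 37.2, counting error only), and the adjusted p of 0.0465 from edgeR rose to between 0.0693 and 0.148 with any 1 line left out. *Neil2* passed the filter on low counts only through the *Nf1*/*p53* dKO lines, where it is high, and with at least 10 counts asked of every line it was not tested. *Neil1* had the highest value of the list, 0.33 (SE 0.33), and 0.10 without the second *Nf1*/*p53* dKO line.

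TET partners and the supply of substrates gave 0 calls in edgeR, where 1.8% of all genes were called. The TET partners gave 0 in DESeq2 and limma-voom too, while the supply list gave 1 in DESeq2 (*Ahcyl2*, lower) and 2 in limma-voom (*Ahcyl2*, lower, and *Idh1*, higher). These tools called 11.6% and 16.6% of all genes. Of 9 CXXC proteins and TET partners 8 were tested, from −0.89 for *Cxxc4*, a low gene at 0.219 to 0.764 CPM, to 0.23 for *Kdm2a*, with a median of −0.15 and 1 gene at an unadjusted p under 0.05. *Cxxc4* was at −0.56 without the second *Nf1*/*p53* dKO line and *Kdm2a* at 0.37 without the third. Of 14 genes of S-adenosylmethionine and 2-oxoglutarate supply, *Ahcyl2* was lowest at −0.93 (SE 0.24, adjusted p = 0.0955). *Idh1*, which makes 2-oxoglutarate in the cytosol, was highest at 1.35 (SE 0.53, adjusted p = 0.204). *Idh1* was at 105, 63.8 and 24.1 CPM in *Nf1*/*p53* dKO lines and at 113, 152 and 227 CPM in *Nf1*/*Cdkn2a* dKO lines, so the groups did not overlap but the first line of each genotype was close. The median of that list was 0.08, with 2 genes at an unadjusted p under 0.05. Of all genes tested, 22.4% had a p under that threshold. *Idh1* was also lowest in the *Nf1*/*p53* dKO line where *Dnmt3a* was lowest.

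Of 12 germline genes that promoter methylation is known to silence in somatic cells, 10 had at most 29 reads over all libraries. *Tdrd1*, a piRNA pathway gene, had 127 and 28 reads in the first and second *Nf1*/*p53* dKO lines and 0 in each other line, and did not pass the filter on low counts. The 1 gene that passed, *Rhox5*, was at 0.235 to 0.902 CPM against 0.0802 to 0.317 CPM (log2 fold change −1.25, SE 0.75, adjusted p = 0.373), and it was not called by DESeq2, while limma-voom tested none of the list. Leaving out the first *Nf1*/*p53* dKO line moved the *Rhox5* value to −0.36.

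Across the 18 cultures, which share 6 tumors, log2 CPM of *Uhrf1* and *Dnmt1* had a Pearson r of 0.875, *Uhrf1* and *Tet2* of 0.883, and *Dnmt3b* and *Tet2* of 0.825. *Dnmt3a* ran against *Dnmt1* (r = −0.749). These values describe the levels of 6 lines more than 18 independent points, and after the mean of each line was taken out they were 0.579, 0.554, 0.64 and 0.274. Among 10311 genes with a mean of at least 5 CPM, the nearest to *Dnmt1* were *Iqgap3* (r = 0.976) and *Rad54l* (0.974), and the nearest to *Uhrf1* were *Cpsf1* (0.974) and *Ccnl1* (0.973). *Dnmt3a* was nearest to *Slc5a3* (0.958) and *Aspa* (0.945), and *Dnmt3b* to *Mical3* (0.938) and *Arhgef11* (0.902). *Tet2* was nearest to *Zfp827* (0.947) and *Ssx2ip* (0.947). *Tet3* was nearest to ENSMUSG00000025702 (0.860), whose symbol the table holds as a date, and to *Dcaf1* (0.859), and *Tdg* to *Loxl2* (0.942) and *Pop4* (0.933).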

How the data were processed

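Per the labels and the submitters' processing notes, reads were handled with CASAVA, STAR 2.5 and DESeq2 1.14.1 on GRCm38/mm10. The counting tool and its strand setting are not given in the sources used here. The deposited table holds whole-number counts for each gene, not normalized, and all 18 of its count columns were used. Libraries were grouped by genotype and line from their titles. No 2 cultures of a line agreed within sampling noise.

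Here the counts were summed by line, filtered with filterByExpr (minimum count 10, minimum total 15), scaled by TMM and tested with edgeR 4.0.16 (quasi-likelihood, two-sided, Benjamini-Hochberg). Alternatives used DESeq2 1.42.0, limma 3.58.1 and R 4.3.3, and shares were tested with SciPy 1.17.1. A positive fold change is higher in the *Nf1*/*Cdkn2a* dKO. The study's notes on its DESeq2 test state 2 biological replicates per condition, while its RNA-seq methods and the labels give 3 lines per genotype. The steps were tested on simulated data.

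The 8 genes and the gene lists were chosen with earlier results of these data known. Named genes are the 8, the passing, highest and lowest genes of each list, the targeted genes and the 2 most correlated genes, which for *Tet1* are not reported here. *Trim28*, *Dnmt3l*, *Cdca7l*, *Gadd45a*, *Parp1*, *Tdrd1*, *Ngfr*, *Pcna*, *Myod1*, *Sox10* and *Glt8d2* were named after their values were seen.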

Additional observations from a re-analysis of the deposited data

How the results depend on the processing

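With the 18 cultures as separate samples, which counts cultures of 1 tumor as independent, edgeR and DESeq2 each called 4 of the 8 genes: *Dnmt1* (log2 fold change −0.63 and −0.62), *Uhrf1* (−0.63 and −0.62), *Dnmt3b* (−1.11 in both) and *Tet2* (−0.97 in both). limma-voom with line as a random effect called 1, *Uhrf1* (−0.61), and DESeq2 on the 6 lines 2, *Dnmt3b* (−1.08) and *Tet2* (−0.94). In that order of fits (edgeR and DESeq2 on cultures, limma-voom, DESeq2 on lines) the listed partner genes called were 39, 42, 17 and 6, against 2 in the main fit. All genes called were 6096 of 13110 tested, 7224 of 17845, 2173 of 13110 and 2046 of 17700, against 274 of 15207. The 4 of 8 calls on cultures thus stood beside many calls among all genes. At least 10 counts in every line left 1 listed gene called (*Setdb1*), since *Neil2* was not tested. Raw library totals called 423 genes, moved the median of all genes from −0.02 to −0.16 and turned *Dnmt3a* to −0.026. limma-voom turned *Tdg* to 0.067. Relative to the replication list, an alternative chosen after seeing the data, *Tet3* was at 0.17 and *Tdg* at 0.23. These causes were not tested.

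Samples with the same line number did not deviate together (r = −0.112, −0.145 and −0.09). Those with the same culture number had a mean r of 0.0112, −0.0204 and 0.0203, with single pairs from −0.143 to 0.246. Such means cannot show whether some cultures shared a batch. With the line number as a replicate block, 0 genes and 0 listed genes were called, and *Tdg* was at 0.019. In that fit 1 of the 8 had an unadjusted p under 0.05, and the share of all genes under it was not computed. With the culture number as a replicate block the 18 cultures gave 4 of the 8 (*Dnmt1* −0.63, *Uhrf1* −0.63, *Dnmt3b* −1.11, *Tet2* −0.97). That fit called 36 listed genes and 5681 of all 13110 genes tested.

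With 1 line left out, *Dnmt3a* ran from −0.16 to 0.55, *Tet1* from −0.21 to 0.92, *Tdg* from −0.33 to 0.39, *Zfp57* from −0.29 to 1.41 and *Cdkn2a* from −0.18 to 0.81. The *Dnmt1* share differed by −1.44 to 0.257 percentage points. Of the 8 genes, 1 to 4 had an unadjusted p under 0.05 in these fits, where 22.4% of all genes did with all 6 lines. In the same fits 0 to 1 listed genes were called, and all genes called ran from 0 (without the first *Nf1*/*Cdkn2a* dKO line) to 172. In every fit that left a line out, *Dnmt1*, *Uhrf1*, *Dnmt3b*, *Tet2* and *Tet3* kept a negative sign and 0 of the 8 were called. Depth limits *Tet1* and *Dnmt3b*, and 3 lines per genotype limit all tests.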
